A study of Rattus norvegicus with 6 samples.

Results

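The 10 genes of MHC class II antigen presentation examined in rat bone marrow cells were Cd74, RT1-Ba, RT1-Bb, RT1-Da, RT1-Db1, RT1-DMa, RT1-DMb, Ciita, Cd86 and Ctss. They were found by matching the accession of each probe, without its version, to the rat symbols. A probe was matched for 9 of the 10, which are 9 of 8899 genes with a symbol on the array and hold 14 of its 41012 probes, and none was matched to RT1-DMb. Of the 14 probes, 11 probes of 7 genes were bright enough to be tested, and RT1-Ba, Ciita and 1 of 2 probes of RT1-Bb were not.

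Bone marrow cells of male rats aged 8 weeks were cultured under osteogenic conditions, and RNA was taken on day 10 of culture. One group of 3 samples was treated with low-intensity pulsed ultrasound (LIPUS), in which sound waves reach the cells in short bursts, and the other group of 3 samples, the controls, received none. Cy3-labelled RNA of each sample was put on 1 single-colour array. The labels name no strain, no marker used to select cells and no separate animals or cultures behind the replicates, so p-values measure only the spread between these samples.

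MHC class II molecules are pairs of an alpha and a beta chain that display peptides from the endosomes to CD4+ T cells. The rat loci RT1-B and RT1-D encode the chains that present peptide, and correspond to HLA-DQ and HLA-DR in human. New class II molecules bind the invariant chain (Cd74), which cathepsin S (Ctss) degrades in the endosome. The DM heterodimer (RT1-DMa, RT1-DMb) then exchanges the remaining fragment for peptide, and Cd86 on the cell surface gives the T cell its co-stimulatory signal. Ciita is the co-activator through which most of these genes are transcribed, and it acts at promoters by way of factors bound to the X box and the Y box. Macrophages, dendritic cells and B cells express the set constitutively or after interferon-gamma, and bone marrow cultures commonly hold macrophages beside the stromal cells.

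By the RefSeq annotation of assembly GRCr8, the RT1 genes lie together on chromosome 20, in the MHC, from RT1-Da at chr20:4515393-4520387 through RT1-Db1 (chr20:4550594-4560182), RT1-Ba (chr20:4577057-4581650), RT1-Bb (chr20:4598475-4604118) and RT1-DMb (chr20:4695009-4702560) to RT1-DMa at chr20:4708932-4712335. Outside the MHC lie Cd74 at chr18:56527071-56536406, Ciita at chr10:5646854-5694393, Cd86 at chr11:77647565-77706178 and Ctss at chr2:185775316-185803440. The promoters of Cd74 and of the RT1 genes with a tested probe are shown, because X and Y boxes are a well known sequence feature of this gene set. RefSeq, on the same assembly, gave the 300 bases from 250 before to 50 after the start site for 8 of the 10 genes. That start site is not always the first base of the gene coordinates above. For Cd74 the gene begins inside the window, at chr18:56527071, before the start site used. Both strands were searched for an X box core (CTAGNAAC) and a Y box core (GATTGG), which do not overlap each other, and matches are in capitals, read 5′ to 3′ on the strand of the gene. The strand is given after the coordinates.
RT1-Da promoter, chr20:4515165-4515464, plus strand: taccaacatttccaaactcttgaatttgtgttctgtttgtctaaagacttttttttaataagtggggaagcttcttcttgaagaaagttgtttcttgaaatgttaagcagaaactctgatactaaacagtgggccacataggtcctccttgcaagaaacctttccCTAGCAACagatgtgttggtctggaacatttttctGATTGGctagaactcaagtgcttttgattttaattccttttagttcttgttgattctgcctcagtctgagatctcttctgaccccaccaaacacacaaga
RT1-Db1 promoter, chr20:4560113-4560412, minus strand: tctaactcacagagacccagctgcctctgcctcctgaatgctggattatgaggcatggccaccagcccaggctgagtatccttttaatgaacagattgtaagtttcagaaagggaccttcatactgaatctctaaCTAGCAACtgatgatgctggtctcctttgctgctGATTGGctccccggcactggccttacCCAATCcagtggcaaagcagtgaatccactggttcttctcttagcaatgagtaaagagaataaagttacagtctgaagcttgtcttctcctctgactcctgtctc
RT1-Bb promoter, chr20:4604069-4604368, minus strand: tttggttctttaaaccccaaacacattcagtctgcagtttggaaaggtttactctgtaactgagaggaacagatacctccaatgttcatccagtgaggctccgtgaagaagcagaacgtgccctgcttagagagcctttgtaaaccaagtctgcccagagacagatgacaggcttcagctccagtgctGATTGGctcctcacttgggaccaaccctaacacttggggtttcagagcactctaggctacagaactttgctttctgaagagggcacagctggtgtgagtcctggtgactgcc
RT1-DMa promoter, chr20:4712286-4712585, minus strand: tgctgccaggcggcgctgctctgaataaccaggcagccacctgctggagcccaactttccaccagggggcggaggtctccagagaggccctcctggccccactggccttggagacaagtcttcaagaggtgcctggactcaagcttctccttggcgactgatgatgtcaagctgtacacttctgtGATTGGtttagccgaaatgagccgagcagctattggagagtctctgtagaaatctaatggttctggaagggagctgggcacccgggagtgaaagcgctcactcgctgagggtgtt
Cd74 promoter, chr18:56526956-56527255, plus strand: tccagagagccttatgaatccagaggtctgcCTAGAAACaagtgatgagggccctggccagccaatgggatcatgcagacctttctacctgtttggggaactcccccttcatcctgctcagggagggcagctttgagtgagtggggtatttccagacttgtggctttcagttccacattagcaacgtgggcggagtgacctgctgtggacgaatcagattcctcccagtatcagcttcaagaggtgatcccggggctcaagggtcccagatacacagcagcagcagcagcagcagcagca
The X box core was found in 3 of 8 promoters: RT1-Da at position −85 from the start site, RT1-Db1 at −115 and Cd74 at −219. The Cd74 position is counted from a start site downstream of its gene start. This core occurs in 3.59% of all 33469 promoters of the same length. The Y box core was found in 5 of 8, at −50 in RT1-Da, −81 in RT1-Db1, −62 in RT1-Bb, −65 in RT1-DMa and −44 in RT1-Ba, and RT1-Db1 has another on the opposite strand, at −55. It occurs in 14.8% of all promoters. An X box core followed by a Y box core on 1 strand stood in 2 of 8, with 35 bases between their first bases in RT1-Da and 34 in RT1-Db1, against 0.191% of all promoters. Neither motif as spelled here was found in the windows of Cd86 and Ctss. The Cd86 window, chr11:77669031-77669330, lies inside the gene, so the sequence before the first base of Cd86 was not searched. These matches describe letters only. Other spellings of either box were not searched, so a window without a match here may still hold one.

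Levels below are log2 spot intensity after background correction, minus the 75th percentile of the same array, so that 0 is the brightness at that percentile. Changes are LIPUS minus control on that scale with the standard error of limma, and a probe was called at a p under 0.05 after Benjamini-Hochberg adjustment over all 23260 tested probes. Between 55.3% and 61.9% of probes were above background on the LIPUS arrays, and between 53.5% and 61.3% on the control arrays. The scanner limit was reached by 320 to 382 probes on the LIPUS arrays and by 388 to 468 on the control arrays. The labels give no slide, but the tilt of the scanned grid set control 1 and control 2 apart, at 1.26 and 1.29 per mille, from the 3 LIPUS arrays at 0.75 to 0.82 and control 3 at 0.712. Slide was inferred from this, with control 3 as the single control on the slide of all 3 LIPUS arrays. A change with slide as a fixed block is therefore that of the 3 LIPUS arrays against control 3 alone.

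Most of the tested class II probes read lower in LIPUS cultures, by modest amounts, and 1 passed the test. Of the 11 probes, 1 fell (RT1-Da), 0 rose and 10 did not pass, where 3.65% of all tested probes fell and 2.86% rose (6.51% in either direction). An unadjusted p under 0.05 with a lower level in LIPUS was reached by 5 of the 11, against 10.6% of all probes. In 6 of the 11 every LIPUS array lay below every control array, against 12.7% of all probes. In the other 5 the groups overlapped, but these include both Ctss probes, whose control spots were capped at the scanner limit. The change was below 0 for 9 of the 11 probes, against 45.7% of all, with a median of −0.42, against 0.037 over all tested probes. In bulk RNA, fewer cells that express these genes and less RNA per cell cannot be told apart.

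**Figure D1:**
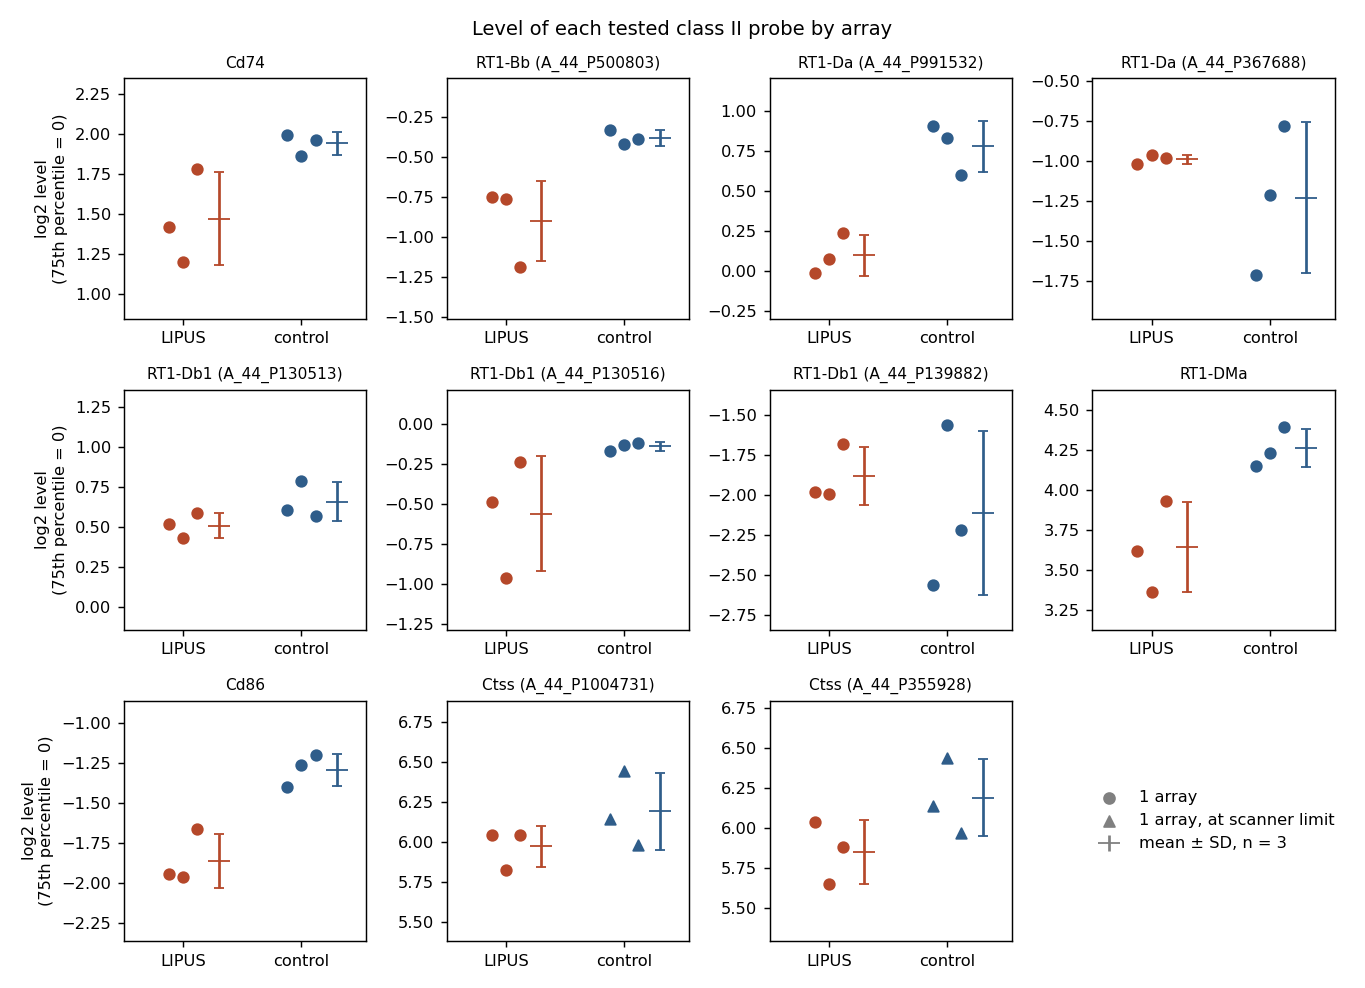
Log2 level (75th percentile of the array at 0) of each of the 11 tested probes on the 3 LIPUS and the 3 control arrays, 1 point per array, with the mean and SD beside them and triangles for arrays at the scanner limit. LIPUS points lie below all control points for Cd74, RT1-Bb, RT1-DMa, Cd86, 1 of 2 RT1-Da probes and 1 of 3 RT1-Db1 probes.

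The co-activator gene Ciita (NM_053529, chromosome 10) could not be compared. Its 1 probe, A_44_P435782, had spot intensities of 85, 141 and 69 on LIPUS arrays 1 to 3, against 91, 93 and 164 on control arrays 1 to 3. It was above background on 1 LIPUS array and 1 control array. Its level in either group was therefore at the edge of what the arrays detect.

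Cd74 (NM_013069), the invariant chain gene, had levels of 1.42, 1.20 and 1.78 on the LIPUS arrays, against 1.99, 1.86 and 1.96 on the control arrays. All 3 LIPUS arrays lay below all control arrays, and the LIPUS arrays were more spread (1.47 ± 0.29 in LIPUS and 1.94 ± 0.07 in control, SD, n = 3 each). The change of −0.47 ± 0.19, or 1.38-fold lower, did not pass (limma adjusted p = 0.173, 95% interval −0.88 to −0.055). In the log2 value table that the authors deposited, the groups overlapped for Cd74, at 1.51, 1.69 and 2.08 in LIPUS against 2.03, 1.68 and 1.96 in control. There the change was −0.13 ± 0.21 (limma adjusted p = 0.76), so its size depended on which of the 2 deposited sources was read.

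RT1-Da (NM_001008847), the alpha chain gene of the RT1-D molecule, held the probe that passed, A_44_P991532. Its levels were −0.01, 0.08 and 0.24 in LIPUS, against 0.91, 0.83 and 0.60 in control, with no overlap. The raw spot intensities were 821, 687 and 836 in LIPUS, against 1735, 1306 and 1542 in control. RT1-Da fell by this probe 1.60-fold (−0.67 ± 0.17, limma adjusted p = 0.0415), and the probe ranked 1332 by p among the 23260. The value table gave −0.51 ± 0.16, also without overlap, but the probe did not pass there (limma adjusted p = 0.139). With slide as a fixed block the change was −0.50 ± 0.19 (limma adjusted p = 0.274). The limma call also ended without control 1, control 2 or any 1 of the 3 LIPUS arrays (adjusted p = 0.0818 to 0.148), and held without control 3 (0.0293).

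The other RT1-Da probe, A_44_P367688, did not show this. It read −1.02, −0.96 and −0.98 in LIPUS, against −1.71, −1.21 and −0.78 in control, so the tightly grouped LIPUS arrays lay inside the wide control range. The change of 0.24 ± 0.23 did not pass (limma adjusted p = 0.570). Its sign turned to −0.64 ± 0.31 in the value table, −0.21 with slide as a fixed block and −0.11 with scaling to spike-in controls. The changes of the 2 RT1-Da probes differed by −0.92, at an exact permutation p of 0.1, two-sided, the smallest that 3 arrays against 3 allow (0.3 adjusted over 4 probe pairs). Over the 6 arrays their levels had a Pearson correlation of −0.602, given as a description. Probe sequences were not used here, so whether a probe also binds a related class II transcript was not tested.

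RT1-Db1 (NM_001008884), the beta chain gene of RT1-D, has 3 tested probes, and none passed. A_44_P130516 read −0.49, −0.96 and −0.24 in LIPUS, against −0.17, −0.13 and −0.12 in control. Its groups did not overlap, although LIPUS 3 lay close to the lowest control array, and the change was −0.42 ± 0.20 (limma adjusted p = 0.257). In the value table its groups overlapped, with a change of −0.27 ± 0.19 (limma adjusted p = 0.459). A_44_P130513 read 0.52, 0.43 and 0.59 in LIPUS, against 0.61, 0.79 and 0.57 in control. Here the groups overlapped, with a change of −0.14 ± 0.16 and an interval of −0.49 to 0.21 (limma adjusted p = 0.638). The remaining probe, A_44_P139882, was above background on 1 LIPUS array and 2 control arrays and read −1.98, −1.99 and −1.68 in LIPUS, against −2.56, −1.56 and −2.22 in control. Its change of 0.23 ± 0.25 (limma adjusted p = 0.630) turned to −0.33 in the value table and −0.12 with scaling to spike-in controls. The 3 pairs of RT1-Db1 probes differed in change by 0.28, −0.37 and −0.65, at exact permutation p values of 0.2, 0.3 and 0.3 (each 0.3 adjusted).

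Of the RT1-B chains, RT1-Bb (NM_001004084), the beta chain gene, was measured by A_44_P500803. Levels were −0.75, −0.76 and −1.19 in LIPUS, against −0.33, −0.42 and −0.39 in control, so all LIPUS arrays lay below the narrow control range. RT1-Bb was 1.44-fold lower (−0.52 ± 0.18, limma adjusted p = 0.115) and did not pass. The value table gave −0.70 ± 0.30 without overlap (limma adjusted p = 0.253). Its other probe, A_44_P552452, was above background on 1 LIPUS array and 0 control arrays, at intensities of 107, 136 and 50 in LIPUS against 98, 74 and 120 in control. RT1-Ba (NM_001008831), the alpha chain gene, was above background on 0 arrays, at intensities of 61, 62 and 62 in LIPUS against 61, 50 and 72 in control. No fold was taken for either.

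RT1-DMa (NM_198741), the alpha chain gene of the peptide-exchange molecule DM, was well above background on all 6 arrays. Levels were 3.62, 3.36 and 3.93 in LIPUS, against 4.15, 4.23 and 4.39 in control, with no overlap between the groups. The mean was 3.64 ± 0.28 in LIPUS and 4.26 ± 0.12 in control (SD, n = 3 each), 1.53-fold lower in LIPUS (−0.62 ± 0.19, interval −1.03 to −0.20). The probe did not pass (limma adjusted p = 0.0845), and this held in 19 of 21 alternatives. It passed in the other 2, with testing restricted to probes above background on all 6 arrays (0.0455) and with scaling to spike-in controls (0.00728). Spike-in scaling moved the change of every probe by −0.35. The value table gave a change of similar size, −0.56 ± 0.17, also without overlap (limma adjusted p = 0.141). With slide as a fixed block it was −0.75 (limma adjusted p = 0.213).

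Ctss (NM_017320, chromosome 2), the cathepsin S gene, was so bright that the spot tables bound its change without measuring it. Probe A_44_P1004731 had intensities of 55090, 39091 and 49852 in LIPUS, while all 3 control spots stood at the scanner limit of 65535. Probe A_44_P355928 had 54913, 34592 and 44800 in LIPUS, with all 3 control spots at the same limit. Every LIPUS spot was thus below the limit and every control spot at it. After scaling of the arrays the control levels are only lower bounds, so whether the groups overlap cannot be read from them. Differences of these capped means put the LIPUS mean at least 1.16-fold lower by the first probe and at least 1.26-fold lower by the other. The limma adjusted p values of 0.505 and 0.337 belong to the capped values and do not test the full change. The same capped differences were −0.0083 and −0.12 with slide as a fixed block, and −0.091 and −0.20 without control 2.

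The value table of the authors placed Ctss well under the limit on all 6 arrays. Undoing its log2 scale gave whole numbers of 11147, 9376 and 11649 in LIPUS for A_44_P1004731, against 28142, 24406 and 20549 in control. For A_44_P355928 it gave 9974, 7913 and 10291 in LIPUS, against 21525, 19109 and 18640 in control. On the normalized log2 scale of the table neither probe's groups overlapped. The change was −0.69 ± 0.18, or 1.62-fold lower, by the first probe (limma adjusted p = 0.0999) and −0.60 ± 0.16, or 1.51-fold lower, by the other (0.104). Neither probe passed. How the authors made this table is not given in the sources used here.

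**Figure D2:**
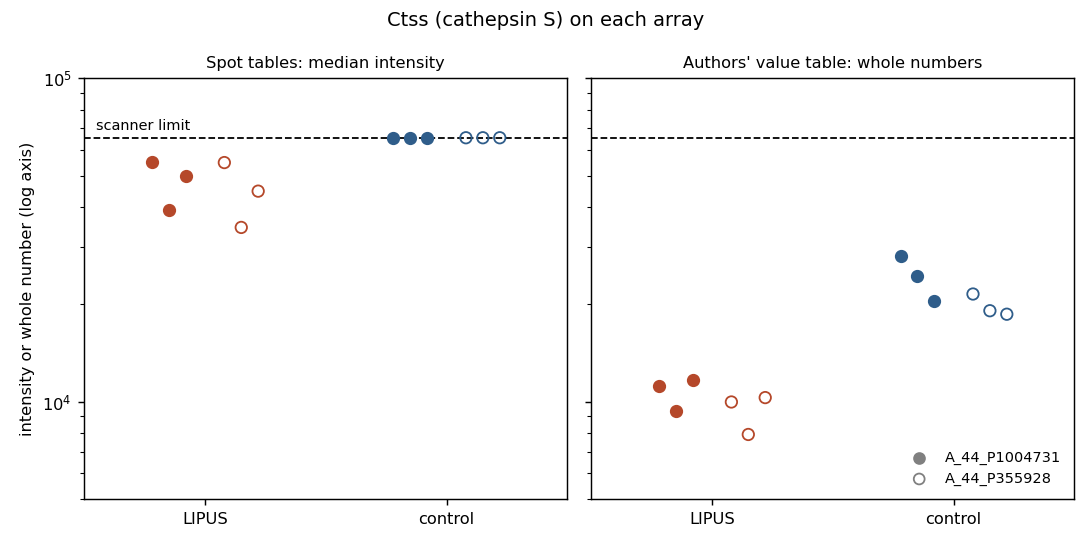
Spot intensity (left) and the whole numbers of the authors' value table (right) for both Ctss probes on each LIPUS and control array, on a log axis, with the scanner limit dashed. In the spot tables all control points lie on the limit of 65535, and in the value table all 6 arrays lie under it, with every LIPUS point below every control point of the same probe.

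Cd86 (NM_020081, chromosome 11), which encodes the ligand of the T-cell receptors CD28 and CTLA-4, was close to background. Levels were −1.94, −1.96 and −1.66 in LIPUS, against −1.40, −1.26 and −1.20 in control, without overlap. Intensities of 152, 114 and 164 in LIPUS, against 297, 252 and 373 in control, put it above background on 2 of 3 LIPUS arrays and on all control arrays. Cd86 was 1.48-fold lower (−0.57 ± 0.16, interval −0.94 to −0.20) and did not pass (limma adjusted p = 0.0729). It passed with no background correction (0.0494) and with scaling to spike-in controls (0.00750). The value table gave a larger change, −1.62 ± 0.49, or 3.07-fold lower, also without passing (limma adjusted p = 0.135). LIPUS 3 was lowest in that table, at −3.85 beside −2.16 and −2.24 for LIPUS 1 and 2, although it was highest of the 3 in the spot tables.

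None (0) of the 11 probes passed in the value table, where 2.36% of all probes were lower and passed. There 5 were lower at an unadjusted p under 0.05 (11.7% of all), and all 11 were below 0 (52.4% of all). The median was −0.56, against −0.026 over all probes. In 6 the groups did not overlap and LIPUS was lower (14.5% of all). These are not the same 6 as in the spot tables: both Ctss probes are among them, while Cd74 and RT1-Db1 A_44_P130516 overlapped. With slide as a fixed block 0 of 11 passed, where 0.714% of all probes were lower and passed and 0.529% were higher and passed, 3 were lower at an unadjusted p under 0.05 (6.23% of all), and 10 of the 11 were below 0 (42.5% of all). With slide as a random block 0 of 11 passed, where 2.59% of all were lower and passed. Scaling to 5 spike-in control probes moved the median change of all probes by −0.35, to −0.31, and that of the members by the same amount, to −0.77.

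**Figure D3:**
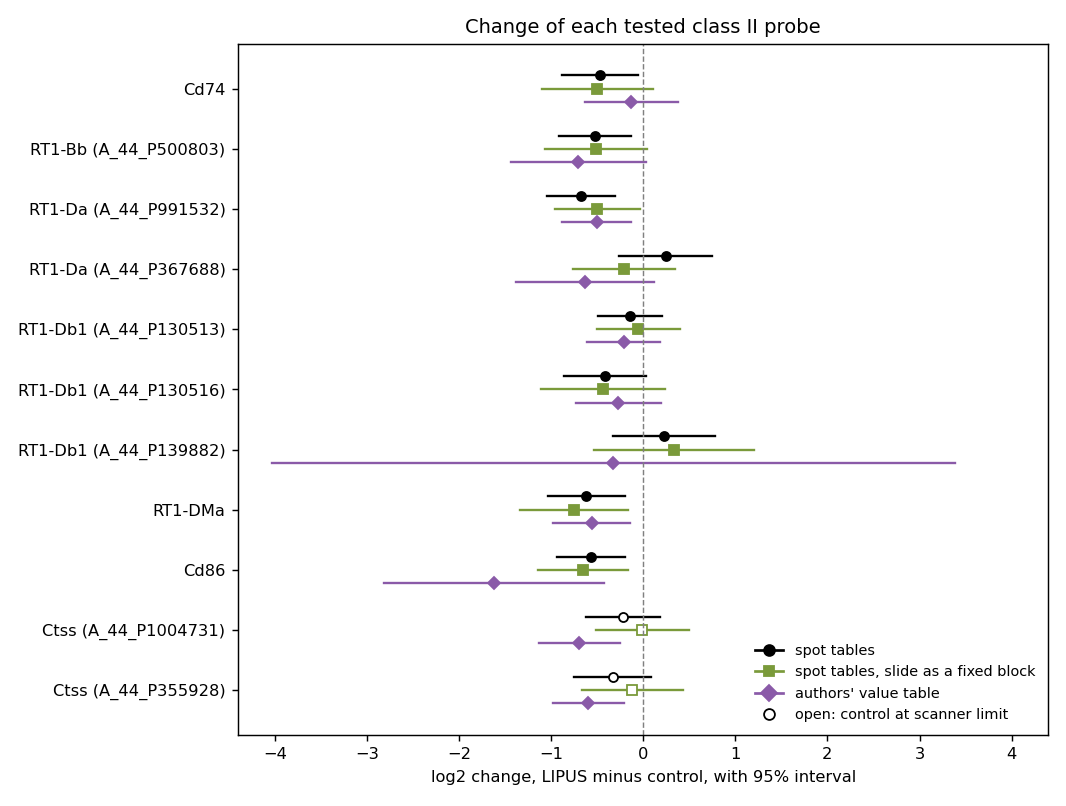
Log2 change, LIPUS minus control, with its 95% interval for each of the 11 tested probes, from the spot tables (black), the spot tables with slide as a fixed block (green) and the authors' value table (purple); open symbols mark the Ctss estimates whose control spots were at the scanner limit. Of the 11 black points 9 lie below 0, and the exceptions are RT1-Da A_44_P367688 and RT1-Db1 A_44_P139882, both below 0 in the value table.

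The members varied together across the arrays only in part. The 9 tested probes under the scanner limit form 36 pairs, of which 23 had a Pearson correlation above 0 over the 6 arrays, from −0.602 to 0.973 with a median of 0.503. Their mean level was −0.07, −0.17 and 0.09 on the LIPUS arrays, against 0.17, 0.35 and 0.31 on the control arrays, so the groups did not overlap and LIPUS 3 came nearest to the controls. The 8 symbols whose levels followed this mean most closely, among 5528 compared, were Acsl4 (Pearson r = 0.989), Npm1 (0.984), Hprt1 (0.983), Snx20 (0.982), Stx6 (0.981), Kcns3 (0.974), Adam15 (0.974) and Sectm1a (0.973). These correlations are over 6 arrays that share the treatment and slide differences. Their changes ran from −0.26 for Npm1 to −0.98 for Sectm1a, and none passed (limma adjusted p = 0.0592 to 0.351). A sign below 0 follows from choosing genes that track a mean lower in LIPUS, so it is no separate result.

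Other genes of class II synthesis, peptide loading and co-stimulation were taken from a list of 49, of which 34 had a probe and 28 were tested, by 39 probes. Of those probes 4 fell, 0 rose and 35 did not pass, where 3.65% of all tested probes fell and 2.86% rose, with a median change of 0.024, or −0.020 over the 31 probes under the scanner limit on every array. The 4 were Ifngr1, Ifi30, Ctsc and Ctsz. None of the 39 passed in the value table or with slide as a fixed block, where the same 4 had adjusted p values of 0.0694 to 0.105 and 0.0973 to 0.338 by limma.

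Among 12 tested genes that control class II transcription, Ifngr1 (NM_053783), a receptor chain for interferon-gamma, fell. Its level was 1.39 ± 0.19 in LIPUS and 2.23 ± 0.12 in control (SD, n = 3 each), a change of −0.84 ± 0.17 (limma adjusted p = 0.0189). The other 19 probes of this group did not pass, and they include all 3 probes of Rfxank and 1 of Rfxap, whose products are parts of the complex that binds the X box. Creb1, whose product also binds class II promoters, had 1 probe at 0.62 ± 0.20 (limma adjusted p = 0.105) and another at 0.20 ± 0.16 (0.483). The alpha and beta chain genes of DO, an inhibitor of DM, RT1-DOa and RT1-DOb, were too dim to be tested.

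The 3 other falls were in genes of the endosomal compartment, where 9 genes had 11 probes. Ifi30 (NM_001030026), the thiol reductase that opens disulphide bonds of antigens, was at 5.24 ± 0.26 in LIPUS and 6.08 ± 0.27 in control, a fall of 0.85 (limma adjusted p = 0.0386), with 1 of 6 arrays at the scanner limit. Ctsc (NM_017097), a dipeptidyl peptidase, was at 2.50 ± 0.04 in LIPUS and 3.25 ± 0.06 in control (−0.75 ± 0.15, limma adjusted p = 0.0184). Ctsz (NM_183330), a carboxypeptidase, was at 2.52 ± 0.11 in LIPUS and 3.16 ± 0.05 in control (−0.64 ± 0.15, 0.0391). Lgmn, an asparaginyl endopeptidase that takes part in invariant chain cleavage, had −0.56 ± 0.16 and did not pass (limma adjusted p = 0.0676). Ctsl, another cysteine cathepsin of lysosomes, read 0.23 by its probe under the limit and did not pass (limma adjusted p = 0.430). Ctsb, Ctsd and both probes of Cst3 reached the scanner limit on each of the 6 arrays, so the spot tables gave no estimate for them. In the value table both Cst3 probes were above 99% of that limit on all 6 arrays, and Ctsb and Ctsd on the 3 control arrays.

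Neither of the remaining groups held a call. Of 5 tested genes of traffic and turnover, Cd37, a tetraspanin of leucocytes, had −0.68 ± 0.23 (limma adjusted p = 0.122). Of the co-stimulation genes, Icam1, the adhesion ligand of LFA-1, had 0.48 ± 0.15 (limma adjusted p = 0.0917), at 2.71 ± 0.06 in LIPUS and 2.23 ± 0.03 in control, opposite in sign to Cd86. Cd40 was tested by 2 probes with changes of −0.14 and 0.11. Cd80, the partner of Cd86, was above background on 0 arrays.

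**Figure D4:**
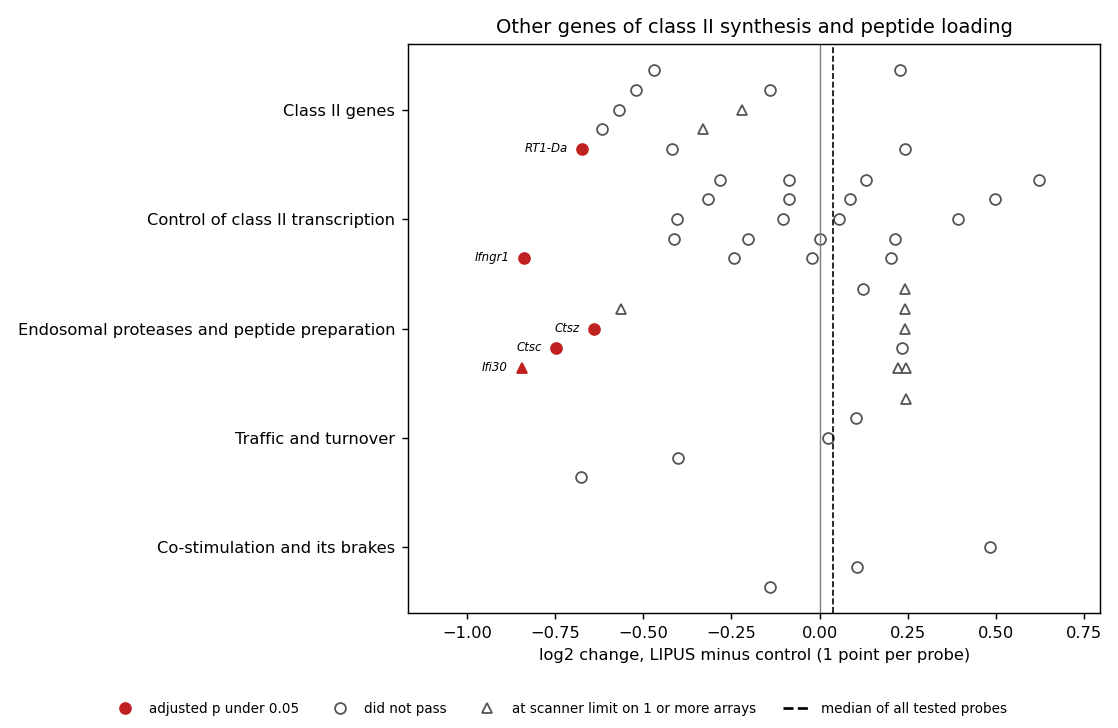
Log2 change, LIPUS minus control, of every tested probe of the class II genes and of the 4 groups of related genes with tested probes, 1 point per probe, with red for a limma adjusted p under 0.05, triangles for probes at the scanner limit on 1 or more arrays, and a dashed line at the median of all probes. The red points are RT1-Da, Ifngr1, Ctsz, Ctsc and Ifi30, all below 0.

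Markers of the cell types that could carry class II were read beside these results. Of 14 macrophage and monocyte markers 10 were tested, by 12 probes. Of these probes 5 fell, 0 rose and 7 did not pass, where 3.65% of all tested probes fell and 2.86% rose. Aif1 fell by 1.54 ± 0.16 (limma adjusted p = 0.00105), Adgre1, an adhesion receptor of macrophages, by 1.32 ± 0.17 (0.00220) and Csf1r, the receptor for the macrophage growth factor, by 0.98 ± 0.21 (0.0223), and the remaining 2 probes were both of Cd14. Of the 12 probes 3 were lower and passed with slide as a fixed block, those of Aif1, Adgre1 and Csf1r (limma adjusted p = 0.0346 to 0.0443), while those of Cd14 did not (0.0973 and 0.0975). Read from the value table, 6 of the 12 were lower and passed (2.36% of all), 0 were higher and passed (1.32% of all), and 6 did not pass. The 6 were Aif1, Adgre1 and, saturated on 3 or 5 arrays of the spot tables, Cd68, Tyrobp and both probes of C1qa. Csf1r (limma adjusted p = 0.0535), both probes of Cd14, Itgam, C1qb and Lyz2 did not pass there. The 3 control values of C1qb were above 99% of the scanner limit in the value table, so its change of −0.26 may understate a fall. The macrophage list's mean level was 4.0 to 4.17 on the LIPUS arrays, against 4.55 to 4.65 on the control arrays. Its summed linear level was 475 to 513 in LIPUS, against 468 to 606 in control, where probes at the scanner limit make up much of the sum. Over the 6 probes under that limit the median change was −0.93, against −0.47 over the 9 class II probes under it. The part of macrophage content in the lower class II levels was not tested.

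Dendritic and B cells were thinly covered. Of 10 dendritic cell markers 3 had a probe: Clec10a, a lectin also found on macrophages, fell by 2.99 ± 0.18 (limma adjusted p = 0.000215), Batf3 had 0.23 ± 0.17 and did not pass (0.457), and Ccr7 was above background on 0 arrays. The summed linear level of this list was 7.64 to 10.1 in LIPUS, against 57.3 to 69.3 in control, and rests almost wholly on the probe of Clec10a. Of 9 B cell markers Cd79b and Blk had a probe, above background on 2 and 0 arrays, and neither was tested. No probe was matched to Ptprc, the marker of all leucocytes.

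T cell markers showed no call among 3 tested genes: Cd4, which rat macrophages also carry, had −0.91 ± 0.24 (limma adjusted p = 0.0502), Cd3d 0.22 ± 0.15 (0.441) and Cd8a 0.44 ± 0.21 (0.261), while Cd3g was above background on 1 array and Cd5 on 0. The list's mean level was −1.12 to −0.81 in LIPUS, against −1.05 to −0.76 in control. Among neutrophil markers S100a8, the only one tested, rose by 0.99 ± 0.20 (limma adjusted p = 0.0209), but did not pass with slide as a fixed block (0.161) or in the value table (0.111), and S100a9 was above background on 0 arrays. Of 9 osteoblast and stroma markers 7 were tested, by 9 probes, and none passed, with a mean level of 5.03 to 5.22 in LIPUS, against 4.80 to 5.06 in control. Of those 9 probes 4 were saturated on all 6 arrays, and only 3 were under the scanner limit on every array. A saturated spot holds 65535 on any array, so its scaled level follows the scaling of the array, and the mean level is in large part of this kind. Over the 3 probes under the limit the median change was 0.34. In the value table the probe of Bglap passed and the other 8 did not. Of those, 1 Col1a2 probe (A_44_P458851) was above 99% of the scanner limit on all 6 arrays there, and Sparc on 2 LIPUS and 3 control arrays. A change of these probes could not be measured. Bglap, the osteocalcin gene, was higher there in LIPUS by at least 1.97 (limma adjusted p = 0.0136), since its 3 LIPUS values were above 99% of the scanner limit. Of the endothelial markers Esam fell by 1.80 ± 0.22 (limma adjusted p = 0.00187; 0.0553 with slide as a fixed block), Kdr had −0.60 ± 0.19 and did not pass (0.0946), and Pecam1 was above background on 0 arrays.

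**Figure D5:**
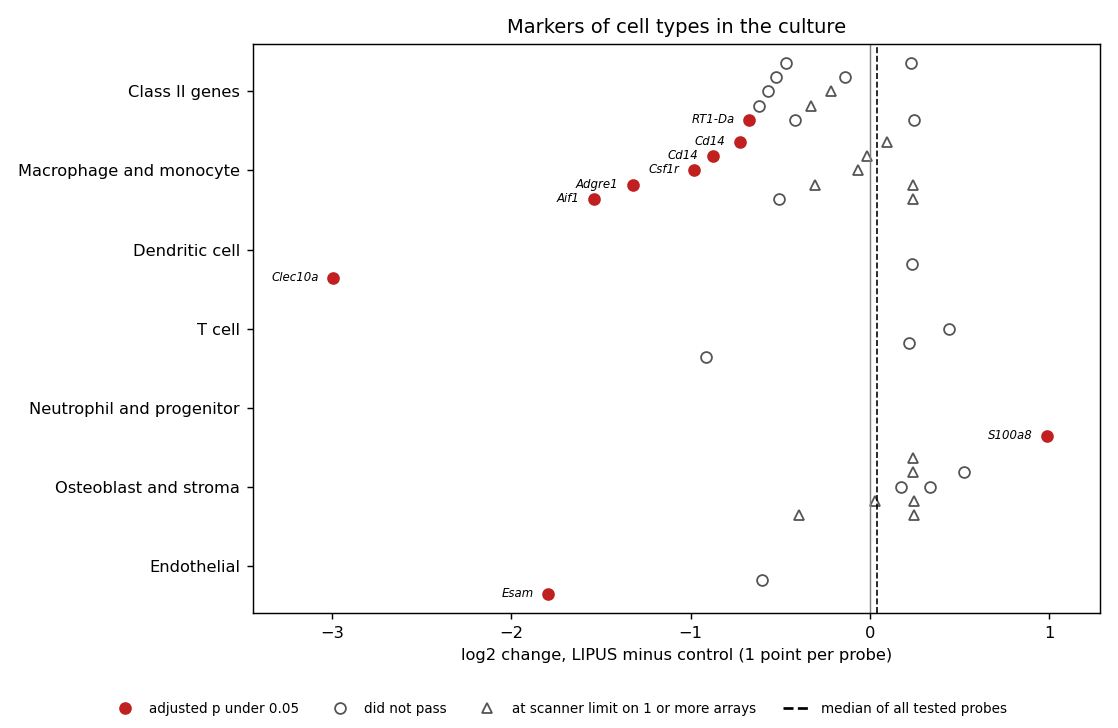
Log2 change, LIPUS minus control, of the tested class II probes and of tested probes of cell type markers, 1 point per probe, drawn as in the plot of related genes. Red points below 0 are RT1-Da, 5 macrophage probes, Clec10a and Esam, and the red point above 0 is S100a8.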

How the data were processed

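Gene expression was measured on 6 single-colour arrays, 3 LIPUS and 3 control, grouped by their titles. Per the file headers, the deposited spot tables give spot and local background brightness as intensity, up to 65535 and not normalized, the share of saturated pixels as a percent, and the spot position. The sources used here name no scanner, software or genome build. The authors also deposited a log2 value table; how it was made is unknown. Its 75th percentile is 0 in every column, and its medians are −2.49, −2.62 and −2.85 in LIPUS and −2.37, −2.49 and −2.53 in control. Taken relative to the lowest value of its column and put back on a linear scale, 98.7% to 98.9% of probes came out whole to within 0.01.

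The design assumed a processed signal and background flags, which the spot tables lack. Intensities were corrected with limma's normexp (offset 50), put on the log2 scale, averaged per probe and reduced by each array's 75th percentile. The background limit was the 95th percentile of an array's 153 negative spots, and probes above it on at least 3 of 6 arrays were tested, each on its own, with limma 3.58.1 (lmFit and eBayes, two-sided, R 4.3.3). The limma code was tested on simulated data. The value table was fitted over the same probes. Symbols, coordinates and promoters came from RefSeq tables of GRCr8; the build of the array is not given. Figures were made in Python 3.11.15 (matplotlib 3.10.9), and jsonlite 2.0.0 read the labels. Alternatives covered background correction, scaling, filters, source, slide, replicate number and each array left out.

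All members with all probes are named. Of the related genes, those that passed and otherwise up to 4 of the smallest unadjusted p were to be named, and of each marker list up to 3 that passed and defining markers not above background. Rfxank, Rfxap, Ctsl, Ctsb, Ctsd, Cst3, Cd40, Cd80, RT1-DOa, RT1-DOb, Batf3, Cd4, Cd3d, Cd8a, Kdr, Cd68, Tyrobp, C1qa, C1qb, Lyz2, Itgam and Bglap were named after their values were seen. Members and lists were chosen with earlier results of these data known. The number of arrays limits the precision.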

Additional observations from a re-analysis of the deposited data

How the results depend on the processing

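The direction of the called RT1-Da probe held in all 21 alternatives, with changes of −1.03 to −0.50, but it lost its call in 13 of them (limma adjusted p = 0.00297 to 0.372). Among all probes 1515 were called (666 higher, 849 lower), against 854 in the value table, 3910 with scaling to spike-in controls (206 higher, 3704 lower), 686 with no filter on dim probes, 289 with slide as a fixed block, 0 within the shared slide and 0 in the value table with no filter, which was chosen after seeing the data. Median centring gave 490 higher and 1022 lower. Leaving out 1 array gave 670 (without control 1) to 2288 (without control 3) calls. The fixed block and the shared slide are 1 comparison, with control 3 as the only control. Without control 3, slide and group cannot be told apart.

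Of the 11 class II probes 1 was called, against 2 with no background correction, 2 with the filter at all 6 arrays and 6 with spike-in scaling. Over all probes these settings called 840, 1078 and 3704 lower, in that order, against 849 in the main run. The filter at all 6 arrays left Cd86 and RT1-Db1 A_44_P139882 untested, and with no filter all 14 probes were tested. With the offset at 16, in the value table with and without the filter, and with no filter, 0 were called. The count was also 0 with slide as a random block and with the replicate number as a block. Spike-in scaling added Cd74 (limma adjusted p = 0.0213), RT1-Bb (0.00970), RT1-Db1 A_44_P130516 (0.0355), RT1-DMa and Cd86. Leaving out 1 array gave 0 to 1 calls. The median change of −0.42 was −0.56 in the value table, −0.77 with spike-in scaling and −0.28 with no filter, and −0.45 to −0.23 with 1 array left out, nearest to 0 without LIPUS 2. Changes that turned sign were RT1-Da A_44_P367688, at −0.64 in the value table with and without the filter, −0.11 with spike-in scaling and −0.21 with slide as a fixed block and within the shared slide, and RT1-Db1 A_44_P139882, at −0.33 in the value table with and without the filter and −0.12 with spike-in scaling. The cause was not tested, except that spike-in scaling lowers every change by the same amount.

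The 4 calls among related genes became 2 with the offset at 16, with slide as a random block and with the replicate block, 10 with spike-in scaling, and 0 with the value table, filtered or not, with no filter, with slide as a fixed block and within the shared slide. Over all probes the offset at 16, the random block, the replicate block and spike-in scaling called 738, 603, 732 and 3704 lower, in that order. The main run called 849 lower. Leaving out 1 array gave 0 to 4 calls among the related genes. Their median of 0.024 was −0.033 with median centring, −0.00050 with quantile normalization, −0.33 with spike-in scaling, 0.056 with no filter, −0.020 without probes at the scanner limit, 0.0555 with 1 probe per symbol, −0.094 with slide as a fixed block and within the shared slide, and −0.028 with slide as a random block, and −0.048 to 0.076 with 1 array left out. No pairing by replicate number was seen: same-numbered arrays deviated with correlations of −0.0153 to 0.0082. The labels do not say whether same-numbered samples belong together. With the replicate block 1241 probes, 0 class II probes and 2 related probes were called. Signal near background limits RT1-Ba, Ciita, RT1-Db1 A_44_P139882 and Cd86, and the scanner limit bounds Ctss.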
